A study of Drosophila melanogaster with 4 samples.

Results

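The genes described here are 4 eggshell genes of the Drosophila ovary, Vm26Aa, dec-1, fs(1)M3 and fs(1)N. They were chosen by name from the genes that the authors listed as differing between ovaries of snf148 mutant and wild-type females, and all 4 were found among the 1283 listed genes. RNA was sequenced from 2 libraries per genotype. The mutant females carried the snf148 allele of sans fille, a gene for a spliceosomal protein that the germline needs to make Sex-lethal protein, and were labelled with the full genotype y w snf[148] v and as adults of 3 days. The wild-type females were labelled y w, so that the y and w markers were common to both groups whereas v and snf148 were not, and they were virgins of 0 to 24 hours. Genotype and age therefore differed together and cannot be told apart, and mating is stated for the wild type alone. How many females went into a library is not given in the sources used here.

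The Drosophila eggshell is built in layers around the growing oocyte by the follicle cells, the somatic epithelium that encloses each egg chamber. The vitelline membrane is laid down first, as secreted vitelline bodies that fuse and are cross-linked, and the chorion follows over it in the last stages of oogenesis. The membrane is also a store of patterning information: proteins secreted by the oocyte are built into it and hold Torso-like there, the follicle cell product that later sets where the terminal Torso pathway is active in the embryo. Germ cells of snf148 females form tumours.

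The 4 genes split by the cell that makes their product. Vm26Aa encodes a major structural protein of the vitelline membrane (also known as sV17), and dec-1 (defective chorion 1) encodes proteins that follicle cells secrete during vitelline membrane formation and that are cleaved and needed later for the endochorion. fs(1)M3 (fs(1)polehole) and fs(1)N (fs(1)Nasrat) encode large proteins that the oocyte contributes to the vitelline membrane, required for a sound membrane and for terminal patterning. The follicle cell genes were both higher in snf148 ovaries, by 3.22-fold for Vm26Aa and 3.38-fold for dec-1, whereas the oocyte genes were both lower, at 0.442 of the wild-type level for fs(1)M3 and 0.426 for fs(1)N. Over all listed genes 51.8% were higher in snf148 and 48.2% lower. A count of 2 higher and 2 lower among the 4 is close to that background. What is described here is the arrangement of directions over the genes. The genes were chosen with earlier results of these data known, so their arrangement is no test of a pattern by cell of origin.

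Levels are the authors' mean FPKM over the libraries of a genotype, that is, fragments corrected for transcript length and library size, so that levels of different genes can be set beside each other. Values per library were not analysed here, the depth is unknown, and no SD or n of libraries stands beside a mean. The spread between libraries is therefore seen here only through the authors' own test.

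Vm26Aa had a mean of 219 FPKM in snf148 ovaries, against 67.9 FPKM in wild-type ovaries. This was a log2 ratio of 1.69, snf148 over wild type. The authors' deposited table gives it a P value of 5e-05, or 0.00126 after adjustment. By its level in snf148 it ranked 34th among the 665 higher genes, and 59th among all 1283 listed genes. In wild type the gene ranked 344th among the 1283 by level.

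The locus of Vm26Aa is listed at 5959596 to 5960340 on chromosome 2L, in a build that the deposited tables do not name. In the Ensembl annotation of the BDGP6 assembly, where it is FBgn0003979, it is a gene of 1 exon on the minus strand with 2 transcripts, both coding for a protein of 141 amino acids. No other annotated gene overlaps it there.

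For dec-1 the mean was 138 FPKM in snf148 ovaries and 40.9 FPKM in wild-type ovaries. The log2 ratio was 1.76, and the authors' deposited table gives it the same adjusted P value. It ranked 60th by level among the 665 higher genes. The ratios of Vm26Aa and dec-1 differed by 0.067 on the log2 scale, a distance that is small beside either ratio.

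The dec-1 locus is listed at 7761232 to 7767673 on chromosome X. This deposited locus spans 6442 bases, more than the 6062 bases of the gene in BDGP6. In the BDGP6 annotation, which calls it dec (FBgn0000427), it lies on the minus strand and has 6 transcripts of 4 or 5 exons, each with a coding length of its own, from 950 to 1590 amino acids. A gene-level FPKM sums over these forms and does not tell them apart. An antisense RNA gene, asRNA:CR43615, overlaps its end by 396 bases on the opposite strand; the library kit marks strand per the labels, but whether strand was used in counting is not given, so reads of the overlap could belong to either gene.

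fs(1)M3 had a mean of 34.2 FPKM in snf148 ovaries, against 77.5 FPKM in wild-type ovaries, a log2 ratio of -1.18. Its adjusted P value, from the authors' deposited table, is again 0.00126. fs(1)N was close to it in both genotypes, with 32.3 FPKM in snf148 ovaries and 75.9 FPKM in wild-type ovaries, a log2 ratio of -1.23 and, per the authors' deposited table, the same adjusted P value. Their levels were near the middle of the lower genes, where they ranked 269th and 273rd of 618 by wild-type level. That adjusted P value is the smallest in the tables and is shared by 466 genes, 262 higher and 204 lower, so it does not rank the 4 genes among themselves. At a limit of 0.01 on the adjusted P value all 4 genes would still be listed, along with 33.0% of the listed genes as higher and 27.1% as lower.

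The locus of fs(1)M3 is listed at 5849663 to 5858190 and that of fs(1)N at 1216546 to 1223471, both on chromosome X. Each has 1 annotated transcript of 7 exons, which codes for 1836 amino acids in fs(1)M3 (FBgn0005390, minus strand) and 2118 amino acids in fs(1)N (FBgn0004650, plus strand). The deposited locus of fs(1)M3 spans 8528 bases, more than the 6041 bases of the gene in BDGP6. The gene CG6067 overlaps it there by 77 bases on the opposite strand, and the span of both together is 8619 bases. CG6067 is not among the listed genes. With dec-1, 3 of the 4 genes are X-linked, as are 18.0% of all listed genes. The 4 genes were chosen by name, so these shares are no test of an excess on the X.

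**Figure D1:**
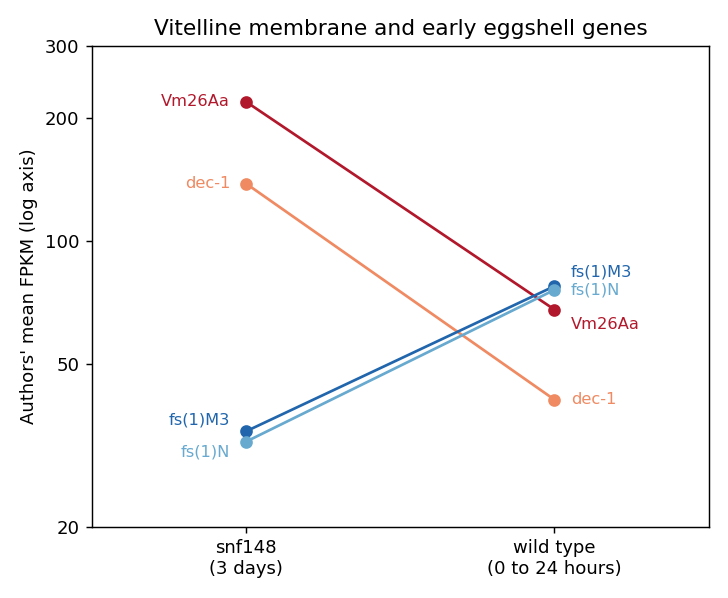
Authors' mean FPKM (log axis) of the 4 genes in snf148 ovaries (left) and wild-type ovaries (right); each point is a mean over 2 libraries, with no error because values per library were not analysed, and lines join the points of a gene. Vm26Aa and dec-1 lie above fs(1)M3 and fs(1)N in snf148 and below them in wild type.

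The 2 pairs changed places by level between the genotypes, while the order within each pair was the same. In snf148 ovaries Vm26Aa was highest at 219 FPKM, followed by dec-1 at 138, fs(1)M3 at 34.2 and fs(1)N at 32.3 FPKM. In wild-type ovaries fs(1)M3 was highest at 77.5 FPKM, followed by fs(1)N at 75.9, Vm26Aa at 67.9 and dec-1 at 40.9 FPKM. Whether neighbours in either order differ beyond the spread between libraries cannot be judged from the means, and fs(1)M3 and fs(1)N in particular were separated by only a few per cent. Vm26Aa and dec-1 together made up 84.3% of the summed FPKM of the 4 genes in snf148 and 41.5% in wild type.

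Ratios between genes within a genotype are free of any scale factor common to all genes of that genotype. How such a ratio changes between genotypes is fixed by the log2 ratios of its genes, which are given above. The changes described next, within and across the pairs, therefore restate those log2 ratios and are no further evidence that the pairs differ. Within the follicle cell pair, Vm26Aa was 1.59 times dec-1 in snf148 and 1.66 times dec-1 in wild type. Within the oocyte pair, fs(1)M3 was 1.06 times fs(1)N in snf148 and 1.02 times fs(1)N in wild type. Each pair thus kept nearly the same proportion in both genotypes.

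Across the pairs the proportions changed. Vm26Aa was 6.78 times fs(1)N in snf148 and 0.895 times fs(1)N in wild type, a 7.57-fold difference between the ratios. The ratio of dec-1 to fs(1)M3 was 4.03 in snf148 and 0.528 in wild type, a 7.64-fold difference. Over the 4 cross-pair ratios the difference ran from 7.30-fold to 7.93-fold. On the log2 scale these differences were 2.87 to 2.99, each the log2 ratio of a follicle cell gene minus that of an oocyte gene. The part of normalisation in them, beyond a scale factor common to all genes of a genotype, was not tested.

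**Figure D2:**
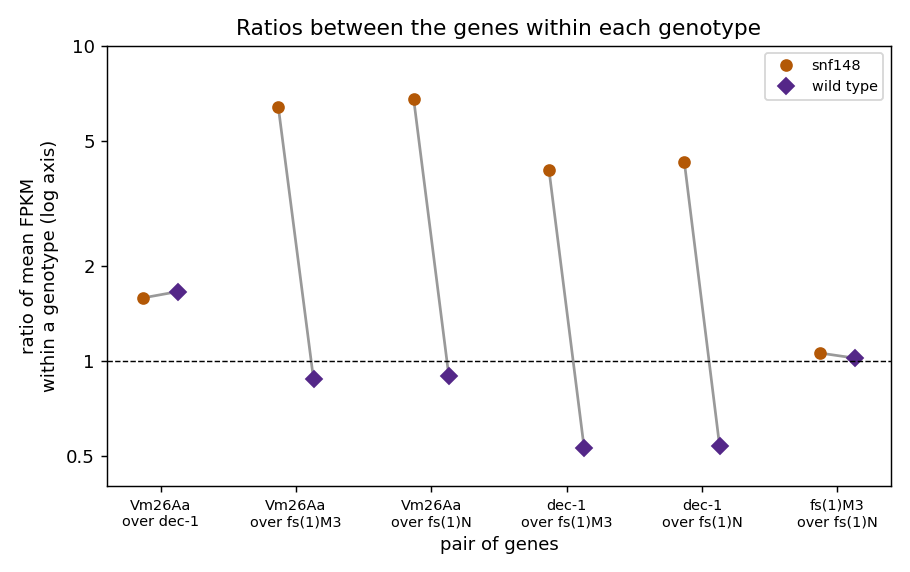
Ratios of the authors' mean FPKM between pairs of the 4 genes within a genotype (log axis), with snf148 as circles to the left and wild type as diamonds to the right; the dashed line marks equal levels. The first and the last pair have nearly equal ratios in both genotypes, whereas the 4 ratios of a follicle cell gene over an oocyte gene lie between 4.03 and 6.78 in snf148 and between 0.528 and 0.895 in wild type.

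Set against all listed genes of the same direction, the sizes of these differences were not extreme. The median log2 ratio was 2.26 over the 626 higher genes above 0 FPKM in both genotypes, and Vm26Aa and dec-1 ranked only 423rd and 414th of the 665 higher genes by ratio. Weakly expressed genes carry the larger ratios among higher genes: with at least 50 FPKM in the higher genotype the median was 1.20 over 162 genes, and Vm26Aa and dec-1 then ranked 49th and 47th. The median of the 616 lower genes above 0 FPKM in both genotypes was -1.06, and fs(1)M3 and fs(1)N lay slightly beyond it, at rank 261 and 237 of the 618 by ratio. With at least 50 FPKM in the higher genotype the median of lower genes was -0.94 over 356 genes. There fs(1)M3 and fs(1)N ranked 82nd and 69th. None of the 4 genes reached a 4-fold difference, whereas 30.2% of the listed genes were at least 4-fold higher and 9.98% at least 4-fold lower.

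**Figure D3:**
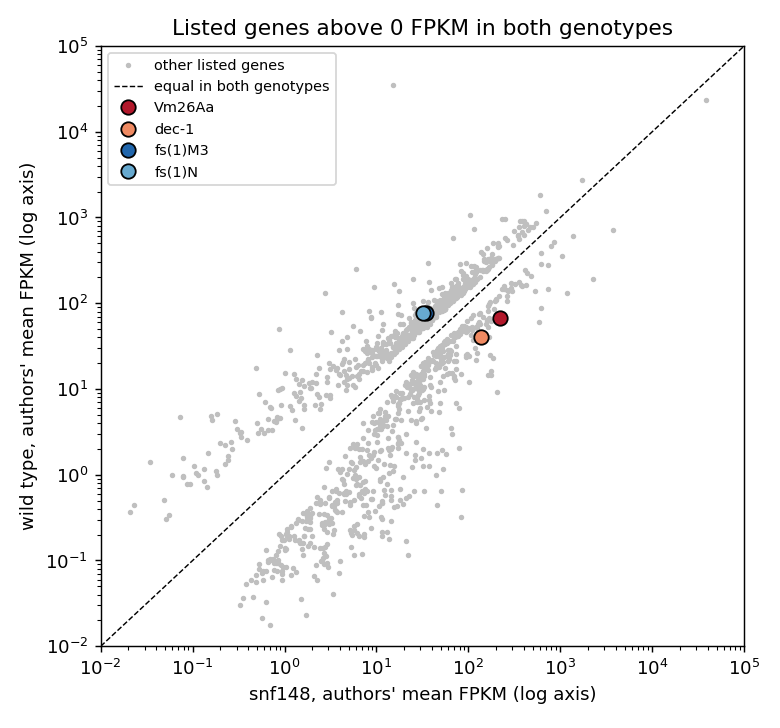
Authors' mean FPKM of each listed gene above 0 in both genotypes, with snf148 on the horizontal and wild type on the vertical axis (both log axes); the dashed line marks equal levels, and the gap around it arises because genes short of the authors' threshold are not in the tables. Vm26Aa and dec-1 lie below the line at 219 and 138 FPKM in snf148, and fs(1)M3 and fs(1)N lie above it, nearly on top of each other.

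Besides Vm26Aa and dec-1, the list of vitelline membrane structural genes held 6 genes, of which Vml and psd were in the tables, 2 higher and 0 lower. Over all listed genes 51.8% were higher and 48.2% lower, and 2 genes are too few to be set apart from that share. With Vm26Aa and dec-1 included, the median log2 ratio of the 4 listed genes was 1.72, against 2.26 for all higher genes above 0 FPKM in both genotypes. Vml, which encodes a vitelline membrane protein of the same family as Vm26Aa, had 25.8 FPKM in snf148 ovaries and 8.17 FPKM in wild-type ovaries, a log2 ratio of 1.66. The palisade gene psd, which encodes another vitelline membrane protein, had 16.3 FPKM in snf148 and 4.46 FPKM in wild type, a log2 ratio of 1.87. The evidence behind Vml and psd is weaker, since the authors' deposited table gives them adjusted P values of 0.0168 and 0.0221. Vm26Ab, Vm26Ac, Vm32E and Vm34Ca were not among the listed genes, which says nothing about their levels.

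Among genes of the terminal and dorsoventral cues that are held in the vitelline membrane or made alongside it, 4 of 14 were listed. Besides fs(1)M3 and fs(1)N these were 1 lower and 1 higher gene, a split close to the 48.2% lower and 51.8% higher of all listed genes. The lower gene was Toll (Tl), the maternal receptor of the dorsoventral pathway, at 28.3 FPKM in snf148 and 46.7 FPKM in wild type (log2 ratio -0.73). The higher gene was windbeutel (wbl), which follicle cells need to bring the sulfotransferase Pipe to the Golgi, at 26.9 FPKM in snf148 and 4.25 FPKM in wild type (log2 ratio 2.66). torso-like (tsl), nudel (ndl) and closca (clos), whose product acts with those of fs(1)M3 and fs(1)N, were not listed.

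Most listed genes of the chorion and other later eggshell products went the other way from the listed vitelline membrane structural genes, although follicle cells make both. dec-1, which was higher, was placed with the vitelline membrane structural genes and not on this list, although its products are also needed for the endochorion. The contrast between the lists depends in part on that placement. Of 28 on this list 8 were in the tables, 7 lower and 1 higher, where 48.2% of all listed genes were lower and 51.8% higher. The rest of the list was not among the listed genes, which says nothing about their levels. The median log2 ratio was -2.42 for the lower members, against -1.06 for all lower genes above 0 FPKM in both genotypes. Cp18, a chorion gene of the amplified cluster on 3L, had the largest difference on this list, with 5.98 FPKM in snf148 and 251 FPKM in wild type (log2 ratio -5.39). Cp15 had 67.2 FPKM in snf148 and 578 FPKM in wild type (log2 ratio -3.11). Of the other chorion genes of that cluster, Cp16 had 9.42 FPKM in snf148 and 154 FPKM in wild type (log2 ratio -4.03), and Cp19 had 83.5 FPKM in snf148 and 235 FPKM in wild type (log2 ratio -1.49). Pxt, a peroxidase related to cyclooxygenases, differed less, with 73.7 FPKM in snf148 and 126 FPKM in wild type (log2 ratio -0.77).

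The remaining lower members were yellow-g2, with a log2 ratio of -2.42, and the eggshell gene CG13084, known by its number alone, with -1.45. The higher member was CG15721, at 10.7 FPKM in snf148 and 3.40 FPKM in wild type. Its log2 ratio of 1.65 was near those of the 4 listed genes of the vitelline membrane structural list, dec-1 included, with 0.0140 as the adjusted P value of the authors' deposited table.

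Of 5 yolk genes 4 were listed, 3 higher and 1 lower, where 51.8% of all listed genes were higher and 48.2% lower. Yp1, Yp2 and Yp3, which encode yolk proteins made in follicle cells and fat body, were all higher, with log2 ratios of 3.16, 2.34 and 1.93. The gene of the oocyte's yolk receptor, yl, had 160 FPKM in snf148 and 435 FPKM in wild type, a log2 ratio of -1.45. Of follicle cell fate and timing genes 3 of 23 were listed. Fas3, an adhesion protein of early follicle cells and polar cells, had 165 FPKM in snf148 and 53.2 FPKM in wild type, a log2 ratio of 1.63 that was close to those of Vm26Aa and dec-1. The transcription factor gene cas had a log2 ratio of 1.64, and pnt, an effector of EGF receptor signalling, one of -1.25.

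**Figure D4:**
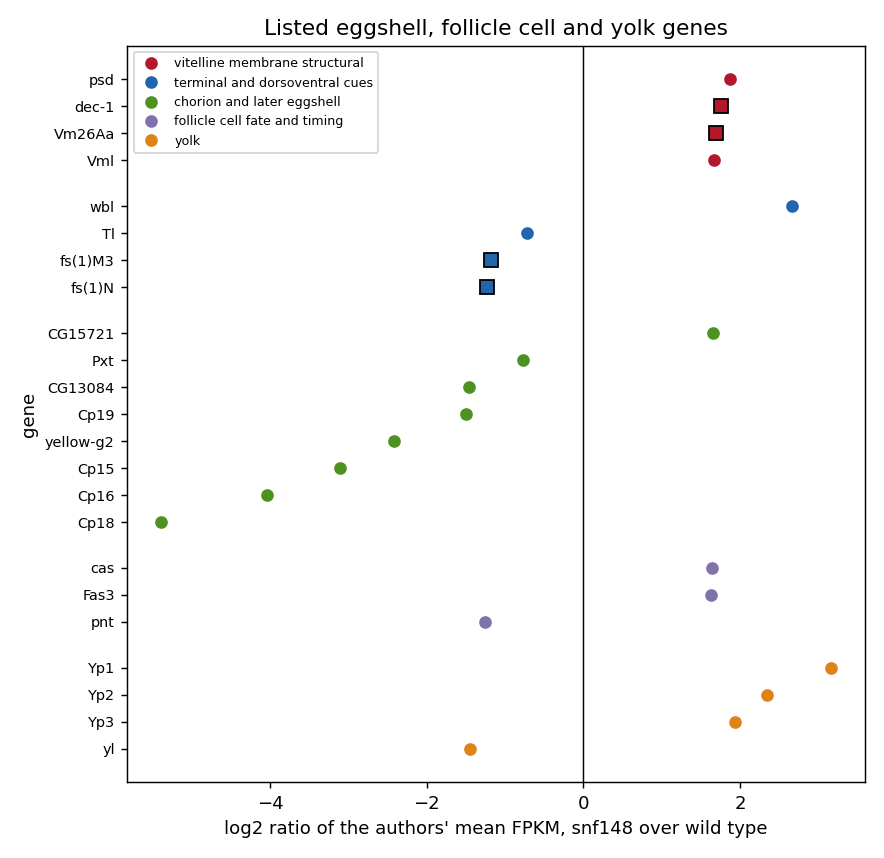
Log2 ratio of the authors' mean FPKM, snf148 over wild type, for each listed gene of 5 gene lists (colours); squares with a black edge are the 4 genes chosen by name and circles the other list members. The 4 listed vitelline membrane structural genes, of 8 on that list, fall between 1.66 and 1.87. CG15721, cas and Fas3 of other lists lie just below that band, at 1.65, 1.64 and 1.63. The chorion genes reach -5.39, and fs(1)M3 and fs(1)N lie at -1.18 and -1.23 beside the yolk receptor gene yl at -1.45.

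In bulk ovary RNA, a change in the number of cells of a type and a change in RNA per cell cannot be told apart. Over all listed genes 51.8% were higher and 48.2% lower, and the marker counts that follow are too small to be set apart from that share. Of 5 follicle cell markers Fas3 and cas were listed, both higher, with a summed level of 176 FPKM in snf148 and 56.9 FPKM in wild type. Most of that sum was Fas3, at 165 FPKM in snf148 and 53.2 FPKM in wild type. Fas3 and cas were already given above among the follicle cell fate and timing genes, so they add no further genes here. The markers tj, slbo and eya were not listed, which says nothing about their levels. Of 6 germ cell markers 3 were listed, with a summed level of 288 FPKM in snf148 and 1010 FPKM in wild type. Most of this was osk, at 248 FPKM in snf148 and 967 FPKM in wild type. Of the 3 listed germ cell markers, osk and grk were lower, as fs(1)M3 and fs(1)N were. The third, bgcn, a gene of early germ cells, was higher at 21.1 FPKM in snf148 and 1.78 FPKM in wild type. The germ cell markers vas, nos and bam were not listed, which likewise says nothing about their levels. For other cells that could be carried along in a dissection, some markers were listed with larger differences than those of the 4 genes. Of 6 muscle sheath markers 2 were listed, both lower, with a summed level of 67.1 FPKM in snf148 and 140 FPKM in wild type; Act79B was at 1.02 FPKM in snf148 and 15.4 FPKM in wild type. Of 7 fat body markers 2 were listed, in opposite directions, with a summed level of 98.9 FPKM in snf148 and 166 FPKM in wild type. Pxn, the listed gene of 5 haemocyte markers, was at 94.8 FPKM in snf148 and 24.6 FPKM in wild type, a 3.86-fold difference that exceeds those of Vm26Aa and dec-1. Send1, the listed gene of 2 spermatheca markers, was at 44.6 FPKM in snf148 and 0.985 FPKM in wild type. No listed marker was at 0 FPKM in either genotype. The part of cell composition and of carried-over tissue in the differences of the 4 genes was not tested.

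Likeness was measured as the distance between genes in log2 mean FPKM of snf148 and of wild type, over these 2 means only and among genes above 0 in both. fs(1)M3 and fs(1)N were 0.089 apart, each among the nearest genes of the other at rank 5 from fs(1)N and rank 7 from fs(1)M3. The nearest genes of fs(1)M3 were l(1)1Bi, CG7839 and ppan, at distances of 0.028 to 0.060, and those of fs(1)N were CG4069, CG7839 and CG6712, at 0.031 to 0.066. Vm26Aa and dec-1 were 0.989 apart, with dec-1 at rank 31 from Vm26Aa and Vm26Aa at rank 53 from dec-1. The nearest genes of Vm26Aa were CG9336, the odorant-binding protein gene Obp99a and CG6357, at 0.193 to 0.383, and those of dec-1 were CG42502, cbt and the innexin gene Inx3, at 0.156 to 0.219.

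On the chromosome, 2 of the 4 genes had a listed neighbour whose locus started within 10 kb. psd, at 5963087 to 5964951 on 2L, begins 2746 bases beyond Vm26Aa, and both were higher. CG11409, at 1223551 to 1232255 on X, begins 79 bases beyond fs(1)N and differed in the other direction, with 6.08 FPKM in snf148 and 2.26 FPKM in wild type (log2 ratio 1.43). No listed gene started within that distance of dec-1 or fs(1)M3.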

How the data were processed

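Total RNA treated with DNase was made into stranded libraries and read as paired ends, per the labels' protocols. TopHat2 2.0.9 and Cuffdiff are named in the submitters' processing notes; neither genome build nor annotation nor options are given in the sources used. Per the file headers, each deposited row holds a locus, a mean FPKM per genotype, a log2 fold change with wild type on top, and a raw and an adjusted p-value, which the authors computed; adjusted values run from 0.00126 to 0.0497. Genes short of that threshold were not analysed here, so 1283 is a count of listed and not of measured genes.

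From these means log2 of snf148 over wild type was computed with Python 3.11.15, without a pseudocount. For the 4 genes it differed from the authors' log2 value, with the sign turned round, by no more than 0.001. No further test was made, since values per library were not analysed here, and the planned limma or edgeR fit could not be run. Distances, ratios and neighbours were tested on simulated data. Starts were moved to count from 1. Gene models come from Ensembl 115 (BDGP6), which gave spans and overlaps within that build; its positions were not set against the deposited loci. Named genes were the 4 genes, the listed members of 5 gene lists (beyond 4, those with the highest FPKM in each direction; other named members were picked with their values in view), the 3 nearest genes, and neighbours within 10 kb. The members and lists were chosen with earlier results of these data known. On the lists fs(1)ph is a synonym of fs(1)M3 and was counted once.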

Additional observations from a re-analysis of the deposited data

How the results depend on the processing

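Adding 0.1 or 1 FPKM to both means moved the log2 ratios of the 4 genes by less than 0.1 and changed no direction, and a stricter limit of 0.01 on the adjusted P values of the authors' deposited table kept 2 of the 4 genes as higher and 2 as lower. With at least 4-fold required, 0 members remained higher and 0 lower. At that fold the higher vitelline membrane structural genes numbered 0, the lower cue genes 0, the higher chorion and later eggshell genes 0 and the lower ones 4, the follicle cell genes 0 in each direction and the lower yolk genes 0; fewer genes are counted by construction. At the limit of 0.01 the structural genes numbered 2, without Vml and psd, and the higher later eggshell genes 0. The lower later eggshell genes then numbered 5, without yellow-g2 and CG13084, and the lower cue genes 2, without Tl. Requiring 1 FPKM in the higher genotype changed no list count, and adding 1 FPKM left the 3 nearest genes of each of the 4 genes as they were. The minimum of 50 FPKM for the medians of all higher and lower genes was chosen after the data were seen, and gave 1.20 and -0.94 in place of 2.26 and -1.06. No paired analysis was possible because the deposited means carry no values per library; leaving out a library was not run for the same reason. Depth is unknown, so its part in these values cannot be judged.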

Other observations

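Because Inx3 was among the nearest genes of dec-1, the listed innexin genes, which encode gap junction proteins, were looked up after their values were seen. Of 8 family members 4 were listed, where 51.8% of all listed genes were higher and 48.2% lower. Inx5, Inx6, Inx7 and shakB were not listed, which says nothing about their levels. The directions of so few genes, looked up in this way, are no test of a pattern by cell of origin. Inx2 had 192 FPKM in snf148 ovaries and 86.7 FPKM in wild-type ovaries (log2 ratio 1.15), Inx3 had 120 FPKM in snf148 and 43.5 FPKM in wild type (log2 ratio 1.47), and ogre had 123 FPKM in snf148 and 51.2 FPKM in wild type (log2 ratio 1.26). The germline innexin gene zpg had 109 FPKM in snf148 and 228 FPKM in wild type (log2 ratio -1.07). The adjusted P values of the 3 higher genes are 0.00126 in the authors' deposited table, and that of zpg is 0.00223.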
